A study of Hordeum vulgare with 32 samples.

Results

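The change of the transcriptome between 2 stages of spike development was examined in the barley (Hordeum vulgare) introgression line vrs4.k. Its 6 libraries, of the 32 in the series, were chosen by line and stage alone: 3 at Waddington stage W5.5 were set against 3 at W3.5. The stage names follow the sample labels, while the column headers and the design text call the later stage 5.0. vrs4.k (stock GSHO 1986) carries an allele of the VRS4 locus in the background of cultivar Bowman, and it is 1 line of its allele. All groups shared long days (16 h at 22 °C, then 8 h of night at 18 °C) and were left untreated, and enriched apical meristem tissue was taken when 6 to 8 h of light remained. The libraries used for comparison came from 3 other introgression lines in Bowman, int-a.1 (GSHO 2055), vrs1 (GSHO 1907) and int-c.5 (GSHO 2003), with 3 libraries per stage, and from Bowman itself with 4 per stage. The labels do not say whether replicates came from separate plants, so p-values measure only the spread between these libraries, which may be technical.

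VRS4 encodes a LOB-domain transcription factor related to RAMOSA2 of maize and acts on the fate of spikelet meristems. Mutants set seed in lateral spikelets that stay sterile in wild forms, and can make extra spikelets and florets. The Waddington scale follows the apex from the laying down of spikelets to the growth of stamens and pistil. The organs of a grass floret are specified by MADS-box transcription factors that act in combinations: B-class factors with C-class factors in stamens, C-class factors in the carpel, and E-class (SEPALLATA-like) and AGL6-like factors as partners in all of them. Related MADS-box factors of the SVP group are known to act earlier and to hold back floral identity.

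One library stood apart. In vrs4.k W3.5 replicate 2 the transcripts that mark the later stage in other lines were at or past their W5.5 level, so levels are given library by library, and fold changes and counts with all 6 libraries and without it. To place the libraries, the 100 transcripts rising and the 100 falling most clearly with stage in Bowman, int-a.1, vrs1 and int-c.5 were taken by moderated t, with no vrs4.k library in the choice. A stage position was computed from them, scaled to 0 at the mean of the 13 W3.5 libraries and 1 at the mean of the 13 W5.5 libraries of those lines. The vrs4.k W5.5 libraries lay at 0.50, 0.91 and 0.55, and the W3.5 libraries at -0.12, 1.21 and -0.11. W3.5 replicate 2 was thus higher than all 3 W5.5 libraries of its own line and ranked 3 among all 32 libraries, while W3.5 replicates 1 and 3 lay inside the range of the other lines at W3.5, -0.23 to 0.29. W5.5 replicates 1 and 3 were below the lowest W5.5 library of the other lines, at 0.64, whose separation from W3.5 was fixed by the choice of transcripts. For replicate 3 this depended on the transcripts used. From 500 in each direction it lay at 0.61, above the lowest of the other lines at 0.58. From 100 in each direction chosen in Bowman alone it lay at 0.58, above the lowest at 0.49. W5.5 replicate 1 lay at 0.44 in both, below all of them. With all 3 libraries the vrs4.k means were 0.65 ± 0.22 at W5.5 and 0.33 ± 0.77 at W3.5 (SD, n = 3 each).

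**Figure D1:**
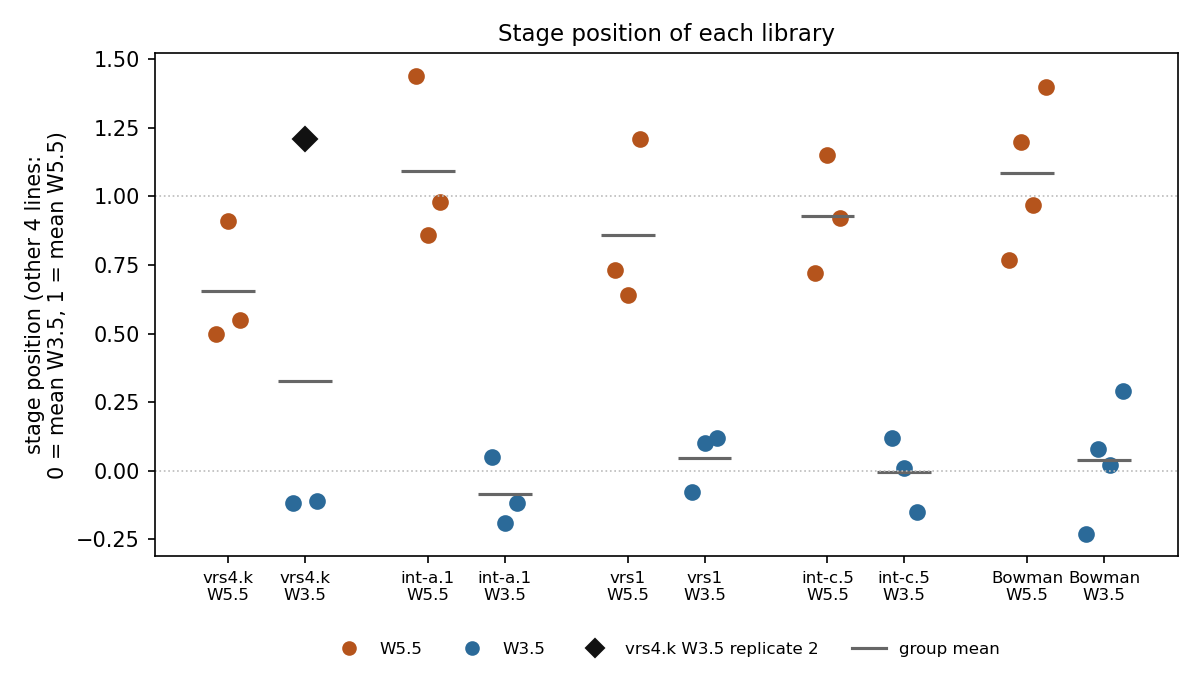
Stage position of each of the 32 libraries (y axis; 0 and 1 are the means of the W3.5 and W5.5 libraries of the 4 lines other than vrs4.k), by line and stage; points are libraries, bars are group means, and the diamond is vrs4.k W3.5 replicate 2. The diamond, at 1.21, is above the 3 vrs4.k W5.5 libraries at 0.50, 0.91 and 0.55, while the other vrs4.k W3.5 libraries are at -0.12 and -0.11.

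The line label of that library was checked on 209 transcripts called between vrs4.k and the other 4 lines at W5.5 only. At W3.5, 182, 176 and 177 of them were nearer to the vrs4.k W5.5 mean than to that of the other lines in replicates 1, 2 and 3, against 39 to 96 in the 13 W3.5 libraries of other lines. Replicate 2 therefore carried the vrs4.k pattern as often as the other vrs4.k libraries. The apex label could not be checked, since all libraries share it and no other tissue is present. The 5 KNOX homeobox transcripts (KNAT1 and KNAT6 matches), which mark meristem tissue, are given as values. They summed to 68 to 113.1 TPM at W5.5 and 56 to 103.8 TPM at W3.5 in vrs4.k, with none listed at 0. In the 26 libraries of the other lines they summed to 53.5 to 117.4 TPM. TPM is a relative abundance scaled for transcript length and library size. The 6 vrs4.k libraries summed to 984680 to 987728 TPM, and their sequencing depth is unknown.

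At equal library weights, no transcript passed the test between W5.5 and W3.5 in vrs4.k. With all 6 libraries, 0 of 30174 transcripts (0%) were called by limma at a Benjamini-Hochberg adjusted p below 0.05, the smallest adjusted p was 1, and 635 had an unadjusted p below 0.05. Of these, 310 (1.03%) were higher and 325 (1.08%) lower at W5.5. Without W3.5 replicate 2 again 0 (0%) were called, with a smallest adjusted p of 0.0759, and the unadjusted p was below 0.05 for 1824 transcripts, of which 1204 (3.99%) were higher and 620 (2.05%) lower at W5.5. That library was singled out on its own expression values, so p-values without it, here and below, only describe the remaining libraries. The groups did not overlap for 688 transcripts higher (2.28%) and 697 lower (2.31%) at W5.5 with all 6 libraries, and for 4381 (14.5%) and 2614 (8.66%) without replicate 2, where 2 W3.5 libraries leave more room for groups to separate. In the same fit of 32 libraries, the stage change of a single line gave 0 calls in Bowman, vrs1 and int-c.5 and 3 in int-a.1. The unadjusted limma p was below 0.05 for 6705 transcripts in Bowman, 3896 in int-a.1, 2159 in vrs1 and 4774 in int-c.5. In the fit without vrs4.k W3.5 replicate 2, calls were 287 in Bowman, 111 in int-a.1 and 0 in vrs1 and int-c.5. The median standard error of a vrs4.k log2 fold change was 0.203 with all 6 libraries and 0.222 without replicate 2. The result depended on how libraries were weighted: with limma's library weights, which gave W3.5 replicate 1 a weight of 4.77 and replicates 2 and 3 weights of 0.354 and 0.515, 1138 transcripts were called, 780 higher and 358 lower at W5.5. Without replicate 2, leaving out W3.5 replicate 1 as well gave 2 calls and leaving out W3.5 replicate 3 gave 3, each with 1 W3.5 library left.

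The stage transcripts of the other 4 lines were followed in vrs4.k. Replicate 2 was singled out on such transcripts, so the gain in agreement when it is left out follows from that choice and is a description only. Averaged over Bowman, int-a.1, vrs1 and int-c.5, 5165 transcripts (17.1%) rose and 1918 (6.36%) fell with stage, called by limma in a fit of the 26 libraries that held none of vrs4.k. Of the rising transcripts, 64.5% had a positive log2 fold change in vrs4.k with all 6 libraries and 82.5% without replicate 2, and the median was 0.05 and 0.17, against 0.32 in the other lines. Of the falling transcripts, 76.3% and then 92.2% had a negative one, with medians of -0.07 and -0.21, against -0.28 in the other lines. Over all transcripts the vrs4.k median was 0.00 with and 0.04 without replicate 2. None of these transcripts was called in vrs4.k in either fit. The groups did not overlap in the direction of the other lines for 83 rising transcripts (1.61%) with all 6 libraries and 1514 (29.3%) without replicate 2, and for 51 (2.66%) and 776 (40.5%) of the falling ones. Over all transcripts the shares were 2.28% higher and 2.31% lower with all 6 libraries, and 14.5% and 8.66% without replicate 2. The direction counts rested on single libraries. A positive fold change was found for 3329 of the 5165 rising transcripts with all 6 libraries, 1861 without W3.5 replicate 3, 2519 without W5.5 replicate 2 and 4416 without W5.5 replicate 1. A negative one was found for 1463 of the 1918 falling transcripts with all 6 libraries and 905 without W3.5 replicate 3. In that last fit most rising and falling transcripts no longer had the direction of the other lines.

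Replicate 2 alone was past all 3 W5.5 libraries, in the direction of stage, for 58.4% of the rising and 58.7% of the falling transcripts. It was short of all of them for 4.05% and 4.9%. Over all 30174 transcripts, replicate 2 was above all 3 W5.5 libraries for 10884 and below all of them for 5747. W3.5 replicate 1 was short of all W5.5 libraries for 36.1% of the rising and 51.3% of the falling transcripts, and W3.5 replicate 3 for 55.4% and 71%. Across all transcripts, the Pearson correlation of the vrs4.k fold change with the mean fold change of the other 4 lines was 0.161 with all 6 libraries and 0.470 without replicate 2. With single lines it was 0.144 with Bowman, 0.092 with int-a.1, 0.074 with vrs1 and 0.187 with int-c.5 with all 6 libraries. Without replicate 2 these were 0.433, 0.291, 0.316 and 0.416, while pairs of the other lines gave 0.297 to 0.573. These are correlations across transcripts, which are not independent replicates, and no library is shared between the lines.

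**Figure D2:**
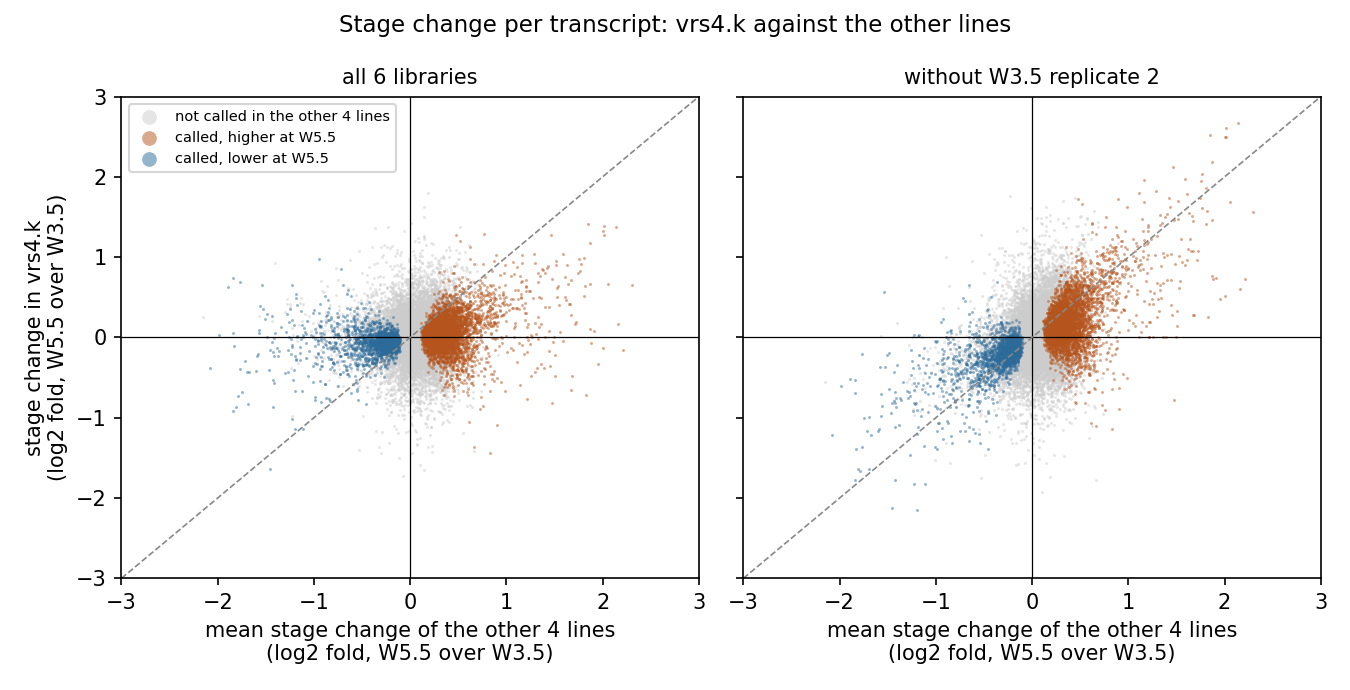
Log2 fold change W5.5 over W3.5 in vrs4.k (y axis) against the mean log2 fold change of the other 4 lines (x axis) for 30174 transcripts, with all 6 vrs4.k libraries (left) and without W3.5 replicate 2 (right); orange and blue points were called higher or lower at W5.5 in the other 4 lines, and the dashed line marks equal change. The coloured clouds lie close to flat on the left, where 64.5% of orange points are above 0, and tilt towards the dashed line on the right, where 82.5% are. Replicate 2 was singled out on such transcripts, so the tilt is a description only.

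Of the 38 MADS-box transcripts 0 were called in either fit. With all 6 libraries 0 had groups that did not overlap (2.28% and 2.31% of all transcripts did, higher and lower), and without replicate 2 the groups did not overlap for 17 higher and 2 lower at W5.5 (14.5% and 8.66% of all transcripts). The median log2 fold change was 0.29 with all 6 libraries, 0.44 without replicate 2 and 0.42 in the other 4 lines. In those lines 20 members rose and 5 fell (17.1% and 6.36% of all transcripts did). Among the 13 members that match rice or Arabidopsis B-class, C-class, E-class and AGL6-like factors, the median was 0.99 with and 1.86 without replicate 2, against 1.52 in the other lines, where all 13 rose. The higher median without replicate 2 follows from how that library was singled out and is a description only. The W3.5 replicate 2 level was above all 3 W5.5 libraries for 10 of these 13 (10884 of all 30174 transcripts were). W5.5 replicate 2 was the highest W5.5 library for all 13. Since these are bulk samples, more cells of a type and more RNA per cell cannot be told apart. The members named in the next paragraphs were chosen after their values were seen, since the rule for named transcripts asked for calls.

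B-class factors specify lodicules and stamens. AK373398, which matches OsMADS16 and APETALA3, had 20.1, 30.7 and 18.2 TPM at W5.5, against 2.5, 47.3 and 3.2 TPM at W3.5. All 3 W5.5 libraries were above W3.5 replicates 1 and 3 and below replicate 2. The log2 fold change was 1.39 (SE 0.683, adjusted p = 1) with all 6 libraries and 2.61 (SE 0.541, adjusted p = 0.245) without replicate 2, which was the smallest p of the list, against 2.01 (SE 0.246, adjusted p = 0.000129) in the other 4 lines. MLOC_44514.1 on chromosome 1, a match of OsMADS4 and PISTILLATA, had 52.8, 73.6 and 41.8 TPM at W5.5 and 7.3, 97.1 and 10.3 TPM at W3.5. MLOC_59262.2 on chromosome 3, which matches OsMADS2 and PISTILLATA, had 6.5, 12.6 and 7.1 TPM at W5.5 and 2.4, 16.5 and 2.7 TPM at W3.5. For both, as for AK373398, W3.5 replicate 2 was above every other library, and W3.5 replicates 1 and 3 were below all W5.5 libraries. MLOC_80902.1 on chromosome 3, a match of OsMADS32 and PISTILLATA, had 179.5, 324.4 and 150.8 TPM at W5.5, against 80.5, 316.5 and 76.9 TPM at W3.5, and here replicate 2 lay just under the highest W5.5 library.

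C-class factors specify stamens and carpels and end the growth of the floral meristem. MLOC_5375.2, a match of OsMADS3 and AGAMOUS, had 7.3, 9.8 and 5.5 TPM at W5.5, against 1.0, 13.9 and 1.3 TPM at W3.5. Its log2 fold change was 1.03 (SE 0.542) with all 6 libraries and 1.96 (SE 0.446, adjusted p = 0.324) without replicate 2, against 1.16 in the other 4 lines. MLOC_57700.1, a match of OsMADS58 and AGAMOUS, was scarcer, at 4.6, 5.6 and 4.1 TPM at W5.5 and 0.6, 10.1 and 0.7 TPM at W3.5. For both, replicate 2 was the highest of the 6 libraries and replicates 1 and 3 were the lowest.

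E-class factors are the SEPALLATA-like partners of the other floral MADS-box proteins. AK249904.1 (OsMADS7 and SEP3 matches) had 19.3, 35.4 and 18.8 TPM at W5.5, against 3.0, 55.1 and 2.7 TPM at W3.5, and its log2 fold change without replicate 2, at 2.67 (SE 0.64, adjusted p = 0.393), was the highest of the 38 members. With all 6 libraries it was 1.38 (SE 0.765). AK374424 (OsMADS8 and SEP3 matches) had 17.1, 24.2 and 14.0 TPM at W5.5 and 2.2, 38.1 and 2.5 TPM at W3.5. In both of these SEP3 matches, W3.5 replicate 2 was above all W5.5 libraries, and W3.5 replicates 1 and 3 were below them. OsMADS1 acts in the lemma and palea of rice, and its matches AK250344.1 and MLOC_53585.1 (chromosome 7) had log2 fold changes of 1.86 and 1.48 without replicate 2 and 0.99 and 0.90 with all 6 libraries. MLOC_57803.3 on chromosome 7 (OsMADS5) had 51.5, 82.5 and 46.4 TPM at W5.5, against 20.8, 86.2 and 14.3 TPM at W3.5. AK374272 on chromosome 6, which matches the AGL6-like OsMADS6, had 16.8, 38.1 and 18.1 TPM at W5.5 and 7.5, 41 and 3.3 TPM at W3.5. MLOC_64157.2 on chromosome 5, the match of the inflorescence factor OsMADS34, was the exception of the 13: its 27.8, 43.8 and 41.5 TPM at W5.5 overlapped the 48.5, 39.1 and 24.2 TPM at W3.5, with a log2 fold change of 0.04 (SE 0.396) with all 6 libraries and 0.11 (SE 0.451) without replicate 2, against 0.62 (adjusted p = 0.0288) in the other lines.

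**Figure D3:**
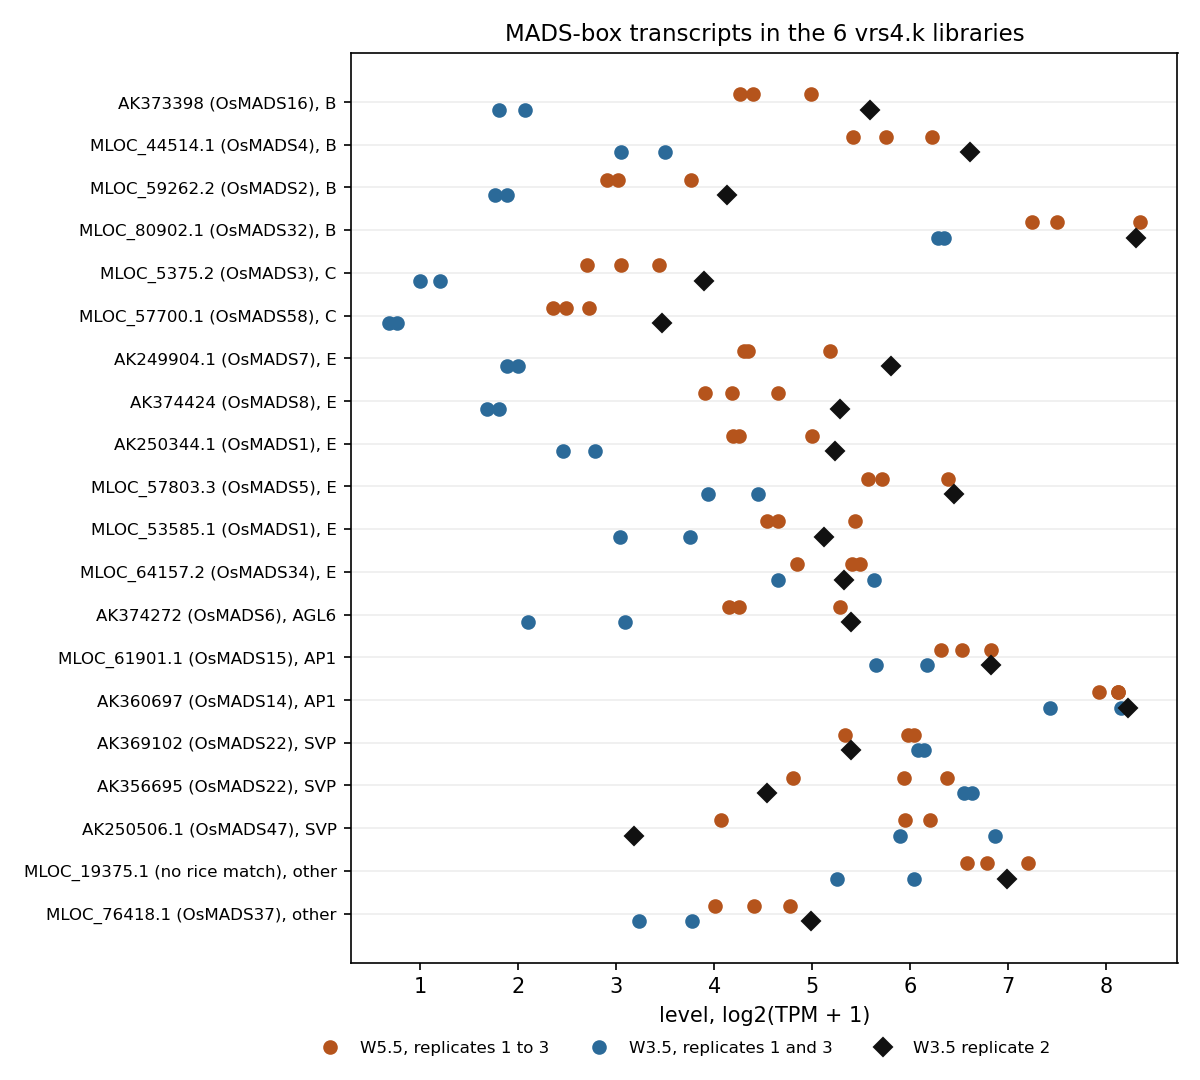
Level, as log2(TPM + 1), of 20 MADS-box transcripts in the 6 vrs4.k libraries, with the nearest rice match and the class used here; orange points are W5.5, blue points are W3.5 replicates 1 and 3, and black diamonds are W3.5 replicate 2. MLOC_80902.1 is placed with the B class by its PISTILLATA match. In the B, C, E and AGL6 rows other than MLOC_64157.2 the blue points are left of all orange points and the diamond lies at or beyond the rightmost orange point or, for MLOC_80902.1 and MLOC_53585.1, between orange points, while in the SVP rows the diamond lies among or to the left of the orange points.

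AP1-like factors mark the change of the apex to flowering, and 4 members match them. MLOC_61901.1 on chromosome 2 (OsMADS15) had 78.4, 112.3 and 91.2 TPM at W5.5 and 70.9, 112.4 and 49.2 TPM at W3.5, so that groups did not overlap without replicate 2. AK360697 on chromosome 5 (OsMADS14) had 242.2, 277.5 and 277.9 TPM at W5.5, within the range of 284.5, 298.5 and 171.0 TPM at W3.5. The OsMADS18 matches AK361063 and AK361227 (chromosome 2) lay between 11.4 and 14.7 TPM and between 18.2 and 22.7 TPM at W5.5, against 10.0 to 14.5 TPM and 16.6 to 22.1 TPM at W3.5, and overlapped. The AGL14 match MLOC_76418.1 (OsMADS37) had 15.1, 26.3 and 20.2 TPM at W5.5 and 12.7, 30.8 and 8.4 TPM at W3.5. MLOC_19375.1 on chromosome 7 had the smallest p of the list with all 6 libraries: 95.0, 146.3 and 109.6 TPM at W5.5, against 64.6, 126.4 and 37.1 TPM at W3.5, a log2 fold change of 0.77 (SE 0.326, adjusted p = 1), and 1.22 without replicate 2.

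SVP-like factors are known as repressors of floral identity, and 4 members match them. Their fold changes were negative without replicate 2, but for MLOC_79734.1 it was near 0. AK356695 on chromosome 7 (OsMADS22) had 60.2, 27 and 82.0 TPM at W5.5, against 98.4, 22.3 and 92.7 TPM at W3.5. AK369102, also closest to OsMADS22, had 62.0, 39.3 and 64.7 TPM at W5.5 and 66.5, 41.1 and 69.6 TPM at W3.5. For both the W5.5 libraries were below W3.5 replicates 1 and 3. The log2 fold changes were -0.20 and -0.09 with all 6 libraries and -0.89 (SE 0.591) and -0.33 (SE 0.353) without replicate 2, against -0.96 and -0.60 in the other 4 lines, where both fell. AK250506.1 (OsMADS47) spread most, with 72.6, 15.8 and 60.7 TPM at W5.5 and 58.6, 8.1 and 115.4 TPM at W3.5. Its log2 fold change was 0.09 (SE 1.03) with replicate 2 and -0.97 (SE 1.07) without it, so its sign turned. MLOC_79734.1 (OsMADS22) had 7.7, 6.2 and 10.7 TPM at W5.5 and 6.8, 3.6 and 9.9 TPM at W3.5, which overlap, with 0.30 with all 6 libraries, -0.03 without replicate 2 and -0.27 (adjusted p = 0.39) in the other lines.

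SHI-family and YABBY factors of floral and lateral organs are described next. SHI-family factors promote stamen and carpel growth through local auxin synthesis. All 4 members were higher at W5.5 with no overlap once replicate 2 was left out (14.5% of all transcripts were). With all 6 libraries 0 of 4 were (2.28% of all transcripts). All 4 rose in the other lines, on whose stage transcripts replicate 2 was singled out, so this difference is a description only. MLOC_74469.2 had 15.8, 26.7 and 14.1 TPM at W5.5, against 2.9, 28.2 and 8.0 TPM at W3.5, and a log2 fold change of 0.93 (SE 0.459) with all 6 libraries and 1.69 (SE 0.387, adjusted p = 0.324) without replicate 2. The W3.5 replicate 2 level was above all W5.5 libraries for 2 of the 4 (10884 of all 30174 transcripts were). The other SHI members, MLOC_79356.1, MLOC_68487.1 and MLOC_59277.5, had 0.93, 0.55 and 0.39 without replicate 2, and 0.49, 0.32 and 0.16 with all 6 libraries. YABBY factors act in lateral organs. Without replicate 2, 3 of 6 were higher at W5.5 without overlap (14.5% of all transcripts were). With all 6 libraries 0 of 6 were, where the share of all transcripts was 2.28%. The groups of the other YABBY members, MLOC_18466.1, MLOC_70653.1 and MLOC_70676.2, overlapped in both fits. Among those that separated, AK373704 on chromosome 4, a match of CRABS CLAW and of rice DROOPING LEAF, which acts in carpel identity, had 31.9, 48 and 27.3 TPM at W5.5 and 17.0, 53.6 and 17.1 TPM at W3.5. The YAB5 match MLOC_66260.1 on chromosome 5 had 4.5, 6.2 and 4.8 TPM at W5.5 and 1.1, 10.5 and 2.4 TPM at W3.5. None of the SHI or YABBY members was called in either fit.

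Among small RNA factors, the ARGONAUTE match MLOC_38505.1 had 19.6, 34 and 21.4 TPM at W5.5, against 5.8, 57.2 and 9.7 TPM at W3.5, with a log2 fold change of 1.57 (SE 0.458, adjusted p = 0.61) without replicate 2, 0.64 (SE 0.547) with all 6 libraries, and 1.82 (adjusted p = 6.2e-05) in the other lines. The SBP-box factor MLOC_74474.4 (OsSPL16) had 19.6, 27.4 and 20.3 TPM at W5.5 and 11, 31.7 and 13.9 TPM at W3.5. The D-type cyclin AK376589, a regulator of entry into the cell cycle, had 13.6, 15.6 and 11.2 TPM at W5.5 and 6.4, 18.2 and 5.9 TPM at W3.5. In all of these, replicate 2 was the highest of the 6 libraries. The TCP factor MLOC_14785.1, a match of TCP5, had 15.1, 4.1 and 6.0 TPM at W5.5 and 16.5, 4.1 and 24.6 TPM at W3.5, with W5.5 below W3.5 replicates 1 and 3. The AP2/ERF factor MLOC_64636.1 on chromosome 1, a match of RAP2.3, had 2.9, 3.7 and 3.8 TPM at W5.5, against 9.9, 0.9 and 6.9 TPM at W3.5, a log2 fold change of -0.30 (SE 0.37) with all 6 libraries and -1.06 (SE 0.234, adjusted p = 0.273) without replicate 2. Leaving out W3.5 replicate 1 in its place turned the sign, to 0.20.

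The next 3 transcripts match early nodulin 93 proteins. They were picked after their values were seen and do not stand for all such matches. MLOC_71169.1 on chromosome 7 had 26.1, 41 and 58.2 TPM at W5.5, against 197.1, 20.2 and 96.7 TPM at W3.5. AK374982, also on chromosome 7, had 7.7, 12 and 16.3 TPM at W5.5 and 43, 6.2 and 33.7 TPM at W3.5. MLOC_34309.1 had 6.9, 11.5 and 15.4 TPM at W5.5 and 51, 5.7 and 30.4 TPM at W3.5. Replicate 2 was below all W5.5 libraries for each. Their log2 fold changes were -0.87, -0.83 and -0.92 with all 6 libraries and -1.77, -1.64 and -1.78 without replicate 2, the second set with adjusted p of 0.61 to 0.789, and near-identical copies may share reads.

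The transcripts that stand for the row-type genes showed no call. AK373051 on chromosome 3 was taken to stand for VRS4, the locus that the introgressed allele concerns. Its Arabidopsis match is LBD41, which MLOC_58304.1 and MLOC_35680.1 share, so its identity as VRS4 was not established here. It had 2.8, 3.1 and 3.3 TPM at W5.5, against 4.7, 2.3 and 3.7 TPM at W3.5. The log2 fold change was -0.13 (SE 0.217) with all 6 libraries and -0.35 (SE 0.227, limma adjusted p = 0.866) without replicate 2. In the other 4 lines it fell by 0.42. VRS1, a homeodomain-leucine zipper factor that holds back lateral spikelets, is represented by AB259783.1 (also MLOC_4993.2) on chromosome 2. It had 0.3, 0.6 and 1.4 TPM at W5.5 and 0.0, 1.1 and 0.1 TPM at W3.5 in vrs4.k, while Bowman had 12.9 to 30.9 TPM at W5.5 and 3.8 to 20.6 TPM at W3.5. The INT-C match MLOC_70116.1 on chromosome 4, a TCP factor related to TEOSINTE BRANCHED1 of maize, had 1.7, 1.9 and 1.8 TPM at W5.5, against 0.8, 2.2 and 0.7 TPM at W3.5. The INT-A match MLOC_69611.1 on chromosome 1, a Jumonji-domain protein of the histone demethylase family, had 4.9, 8.2 and 6.5 TPM at W5.5 and 9.0, 7.5 and 4.3 TPM at W3.5, which overlap.

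Photosynthesis transcripts tended to be higher at W5.5 in both fits. With all 6 libraries the groups did not overlap for 18 of 93 members higher (19.4%, against 2.28% of all transcripts) and 0 lower at W5.5, without replicate 2 for 28 higher (30.1%, against 14.5%) and 6 lower (6.45%, against 8.66%). The median log2 fold change was 0.28 with and 0.26 without replicate 2, against 0.00 in the mean of the other 4 lines. By line that median was 0.05 in Bowman, -0.03 in int-a.1, -0.12 in vrs1 and 0.15 in int-c.5. None was called in either fit, and none for the difference from Bowman. The list summed to 2979, 2521 and 2390 TPM at W5.5 and 1837, 2023 and 2398 TPM at W3.5, so that the summed levels overlapped; at most 2 of the 93 members were listed at 0 in any of these libraries. The thylakoid lumen protein MLOC_22512.2 on chromosome 1 had the smallest p with all 6 libraries, at 16.1, 12.5 and 12.6 TPM at W5.5 and 9.4, 9.8 and 10.5 TPM at W3.5, a log2 fold change of 0.43 (SE 0.146, adjusted p = 1), and 0.42 without replicate 2. The chlorophyll a/b-binding proteins MLOC_4849.1 (chromosome 1) and MLOC_69498.1 (chromosome 7), which harvest light, had log2 fold changes of 0.98 and 0.87 with all 6 libraries and 1.5 and 1.16 without replicate 2. These transcripts also mark green tissue, whose share in each apex sample was not tested.

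Of 315 ribosomal protein transcripts, 78 were lower and 6 higher at W5.5 without overlap once replicate 2 was left out, against 3 lower and 3 higher with all 6 libraries. These were 24.8% and 1.9% of the list without replicate 2, where 8.66% and 14.5% of all transcripts were, and 0.952% each with all 6, below the 2.31% and 2.28% of all transcripts. Their median was -0.05 with and -0.13 without replicate 2, and -0.17 in the other lines. There 154 fell and 3 rose (6.36% and 17.1% of all transcripts did). The gain in vrs4.k when replicate 2 is left out is again a description only. The ribosomal protein MLOC_68534.1 on chromosome 5 had 39.5, 32.1 and 36 TPM at W5.5, against 45.5, 37.6 and 50.5 TPM at W3.5. The 150 core and linker histones accumulate in dividing cells, and in the other lines 35 rose and 0 fell (17.1% and 6.36% of all transcripts did). In vrs4.k the groups did not overlap for 11 higher (7.33%) and 1 lower (0.667%) with all 6 libraries, against 2.28% and 2.31% of all transcripts. Without replicate 2 these were 40 (26.7%) and 5 (3.33%), against 14.5% and 8.66%. The histone median was 0.05 with and 0.07 without replicate 2, against 0.30 in the mean of the other lines. By line that median was 0.28 in Bowman, 0.68 in int-a.1, 0.37 in vrs1 and -0.17 in int-c.5, so vrs4.k lay inside their range. Their mean log2(TPM + 1) lay between 7.29 and 7.35 at W5.5 and between 7.16 and 7.31 at W3.5 in vrs4.k, and between 6.80 and 7.47 at W5.5 and 6.16 and 7.24 at W3.5 in Bowman. The 48 lipid transfer and seed-storage-like proteins, many of which are made in the epidermis, had a median of 0.01 with and -0.24 without replicate 2, against -0.38 in the other lines. None of these differences between vrs4.k and the other lines was tested for a list as a whole.

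**Figure D4:**
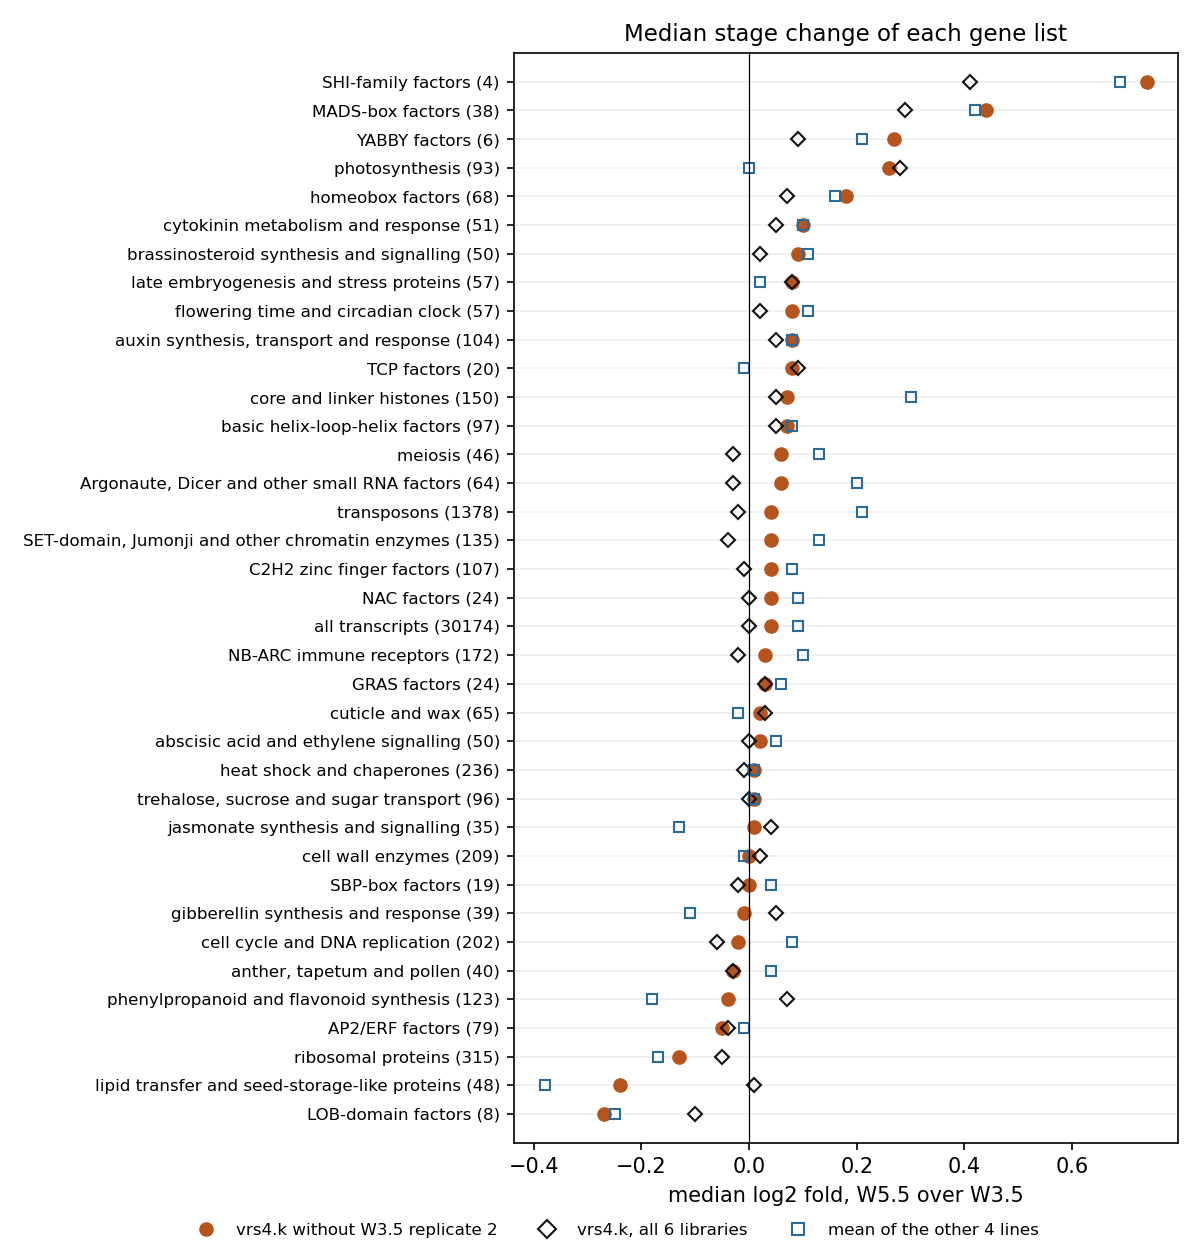
Median log2 fold change W5.5 over W3.5 (x axis) of 36 gene lists and of all transcripts (y axis; number of transcripts in brackets); filled circles are vrs4.k without W3.5 replicate 2, open diamonds vrs4.k with all 6 libraries, and open squares the mean of the other 4 lines. SHI-family, MADS-box and LOB-domain factors lie near the squares once replicate 2 is left out. That library was singled out on stage transcripts of the other lines, so this nearness is a description only. Other lists do not: without replicate 2, transposons lie at 0.04 against 0.21 and histones at 0.07 against 0.30. By line the transposon median ran from 0.09 in int-a.1 to 0.26 in Bowman. The transposon mean log2(TPM + 1) in vrs4.k was 2.61 in W5.5 replicate 1, against 3.03 and 3.04 in W5.5 replicates 2 and 3. Photosynthesis lies at 0.26 without and 0.28 with replicate 2, against 0.00.

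From the other lists, 5 of the members with the smallest unadjusted p of their list with all 6 libraries are given as values, picked after their values were seen. The zinc finger factor MLOC_6548.1 on chromosome 2 had 20.3, 25.8 and 22.9 TPM at W5.5, against 11.7, 19.3 and 13.9 TPM at W3.5, a log2 fold change of 0.61 (SE 0.218, adjusted p = 1) with all 6 libraries and 0.80 without replicate 2. The helix-loop-helix factor MLOC_43888.2 on chromosome 3 had 17.0, 20.7 and 17.6 TPM at W5.5 and 10.4, 12.7 and 13.2 TPM at W3.5. The Aux/IAA repressor of auxin response MLOC_2004.2 (OsIAA13) on chromosome 5 had 2.3, 3.8 and 4.1 TPM at W5.5, against 1.0, 2.1 and 2.0 TPM at W3.5. In each of these all W5.5 libraries were above all W3.5 libraries. On the lower side, a DNA methyltransferase match, MLOC_28364.1 on chromosome 5, had 10.9, 10.1 and 10.3 TPM at W5.5 and 16.6, 19.5 and 11.5 TPM at W3.5, again without overlap. The Dicer match MLOC_35765.2 on chromosome 2, which cuts double-stranded RNA into small RNAs, had 15.4, 22.4 and 34.3 TPM at W5.5 and 32.2, 40.1 and 30.4 TPM at W3.5, where W5.5 replicate 3 overlapped the W3.5 range. Neither passed the test, with an adjusted p of 1 each.

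The smallest adjusted p without replicate 2, 0.0759, was shared by MLOC_32833.1, MLOC_22984.1 and MLOC_1586.1. MLOC_32833.1, which has no informative match, had 25.0, 21.6 and 22.1 TPM at W5.5, against 13.5, 21.0 and 13.7 TPM at W3.5. MLOC_22984.1 on chromosome 2, a heavy metal-associated domain protein, had 3.7, 4.9 and 4.2 TPM at W5.5 and 1.3, 3.8 and 0.7 TPM at W3.5. MLOC_1586.1, again without an informative match, had 16.7, 24.2 and 23.8 TPM at W5.5 and 54.7, 17.2 and 60.5 TPM at W3.5. Replicate 2 lay with or next to the W5.5 libraries in all of them.

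At equal library weights, no single transcript was called for a difference between the stage change of vrs4.k and that of other lines. The difference from the Bowman stage change, tested as an interaction in limma, gave 0 calls (0%) with all 6 libraries, with a smallest adjusted p of 0.665 and 1877 transcripts at an unadjusted p below 0.05, and 0 (0%) without replicate 2, with 0.951 and 966. The difference from the mean of the other 4 lines gave 0 (0%) with all 6 libraries, with 0.858 and 1514, and 0 (0%) without replicate 2, with a smallest adjusted p of 1 and 869. With library weights and all 6 libraries the second of these gave 147 calls and the first gave 0. The transcripts with the lowest moderated t for the difference from Bowman with all 6 libraries were MLOC_27281.1, MLOC_48368.1 and MLOC_29890.1, at -1.43, -1.37 and -1.97 (log2, adjusted p = 0.665 each in limma), and -1.21, -1.47 and -1.59 without replicate 2, none with an informative match. MLOC_48368.1 had 2.7, 3.2 and 5.0 TPM at W5.5 and 7.0, 4.3 and 4.5 TPM at W3.5 in vrs4.k, and 5.6 to 8.2 TPM at W5.5 and 2.9 to 3.4 TPM at W3.5 in Bowman. The highest were MLOC_51077.1, MLOC_12558.1 and AK362332, at 0.97, 0.53 and 0.57, and 1.06, 0.45 and 0.49 without replicate 2. MLOC_12558.1 on chromosome 7, which matches a chloroplast 3-oxoacyl reductase of fatty acid synthesis, had 7.1, 7.6 and 7.6 TPM at W5.5 and 7.1, 5.8 and 6.7 TPM at W3.5 in vrs4.k, and 5.5 to 5.9 TPM at W5.5 and 7.3 to 7.7 TPM at W3.5 in Bowman. Against the mean of the other 4 lines, MLOC_34515.1 and MLOC_81077.3 were among the highest, at 1.05 and 1.32 (adjusted p = 0.858 each), and 1.00 and 1.24 without replicate 2. MLOC_34515.1 had 6.8, 6.3 and 6.1 TPM at W5.5 and 3.4, 2.7 and 2.9 TPM at W3.5 in vrs4.k, with no overlap and with replicate 2 beside the other W3.5 libraries. For AK373398 the difference from Bowman was -0.60 with all 6 libraries and 0.62 without replicate 2, and for MLOC_44514.1 it was -0.33 and 0.78. A p above the threshold at this spread, where the median standard error of the difference from Bowman was 0.268 with all 6 libraries, does not show that the lines changed alike.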

How the data were processed

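RNA sequencing values came from 1 deposited table of 30174 transcripts in 32 libraries. Its columns are titled raw counts per the file headers. The deposited values have decimals and sum to 980945 to 987728 per library, so they were treated as TPM made by the authors. One deposited int-c.5 column holds TPM rounded to whole numbers and was recorded as a score on the same scale. Tools in the submitters' processing notes are GATK, limma, Salmon and BWA, with neither role nor version, and no build is named. Columns name a line and a stage but no sample, so replicate numbers are names only.

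All 32 libraries were fitted in limma 3.58.1 (R 4.3.3; eBayes without trend) with 10 groups (line and stage), no covariate and log2(TPM + 1) as the response, and again without vrs4.k W3.5 replicate 2, which was singled out on its expression values. The fit was tested on simulated data. A transcript was called at a Benjamini-Hochberg adjusted p below 0.05 over all transcripts. Requiring 1 TPM or more in 3 or more libraries removed 0 transcripts. Fold changes on the log2(TPM + 1) scale understate the change of weakly expressed transcripts. Stage changes of the other 4 lines came from a fit of their 26 libraries. Gene names, chromosomes and 36 lists of gene families and pathways come from the table's Arabidopsis and rice matches. The comparison, the members and the lists were chosen with earlier results of these data known. The rule for named transcripts asked for calls, or for the member of a list with the smallest unadjusted p. None of the identifiers (0) matched the reference gene table, so no sequences or coordinates are printed, and 0 per-sample columns could not be assigned.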

Additional observations from a re-analysis of the deposited data

How the results depend on the processing

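Counts of calls in vrs4.k stayed at 0 with all 6 libraries under every alternative tried except library weights, which gave 1138 calls for the stage change, 147 for its difference from the mean of the other 4 lines and 170 among members of any list. The 1138 were out of 30174 transcripts. Of the 780 higher at W5.5, 319 rose and 0 fell in the other lines, and of the 358 lower, 178 fell and 9 rose. Over all transcripts 17.1% rose and 6.36% fell in the other lines. MADS-box members called numbered 10 of 38. The 170 list members are given without a share of all list members. Without W3.5 replicate 2, the stage change gave 3 calls with a pseudocount of 0.1, 5 with library weights and 2 without the 3 libraries of other lines whose principal component score crossed the opposite stage's median. Leaving out 1 more library gave 0 to 3 calls for the stage change, 0 to 1 for the difference from Bowman and 0 to 1 for the difference from the other lines, which also gave 1 with a pseudocount of 0.1. With 1 W3.5 library left, its spread is assumed to be that of the other groups. The rising and falling transcripts of the other lines that kept their direction in vrs4.k numbered from 1861 to 4416 and from 905 to 1769 when 1 library was left out, the lowest without W3.5 replicate 3. The stage position of W3.5 replicate 1 was 0.03 from 500 transcripts in each direction. The cause of these shifts was not tested.

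Log2 fold changes with a sign that turned were all uncalled. With library weights they were -0.15 for MLOC_64157.2 and -0.55 for AK250506.1. Leaving out 1 library at a time gave -0.31 to 0.14 for MLOC_69611.1, -0.35 to 0.04 for AK373051, -0.89 to 0.25 for AK356695, -0.33 to 0.14 for AK369102, -0.03 to 1.20 for MLOC_66260.1, -1.06 to 0.20 for MLOC_64636.1, -0.97 to 0.86 for AK250506.1, -0.23 to 0.26 for MLOC_64157.2, -0.13 to 0.27 for AK360697 and -0.06 to 0.39 for MLOC_59277.5. Library weights also brought 36 of the named fold changes past the threshold, in the same direction. The other alternatives turned no sign of a named transcript. Fitting only the compared groups could not be run for the difference from the other 4 lines, which needs all groups. No paired analysis was possible because the columns carry no replicate number tied to a sample. TPM keeps no depth, so counting error cannot be given.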
